A study of Mus musculus with 6 samples.

Results

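The 10 genes described here encode core proteins of the BCL2 family: the survival proteins Bcl2, Bcl2l1 (BCL-XL) and Mcl1, the pore-forming effectors Bax and Bak1, and the BH3-only death proteins Bcl2l11 (BIM), Bbc3 (PUMA), Pmaip1 (NOXA), Bid and Bad. They were chosen by symbol from the 23420 genes in the count tables, and all 10 were found and passed the filter on low counts. RNA came from LSK cells of mouse bone marrow, a sorted fraction without lineage markers but with Sca-1 and c-Kit, in which stem cells and multipotent progenitors are found. The 3 mutant mice, named bcat(ex3)osb, had constitutively active β-catenin signalling in osteoblasts, which form bone. The 3 WT mice were their littermates, and each mouse gave 1 library. The allele is placed in the osteoblasts by the labels, so the sequenced cells are neighbours of the cells said to carry the active signalling. Of the mice, neither the Cre driver nor age or sex is stated in the labels.

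BCL2 family proteins decide whether the outer mitochondrial membrane stays closed. Survival members hold the effectors in check, BH3-only members bind the survival members or activate the effectors, and active BAX or BAK1 opens the membrane so that cytochrome c reaches the caspase-activating apoptosome. In blood stem and progenitor cells Mcl1 is required for survival, Bcl2 is used heavily by lymphoid cells, and Bbc3 and Pmaip1 are textbook p53 targets.

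Total counts were between 15431235 and 19956774 per library. The fraction's own markers were present in every library: the 10 LSK and stem cell markers summed to 3187 to 3907 CPM (counts scaled to a common library size by TMM) in mutant and 3184 to 4831 CPM in WT mice. The sums are mostly Cd34, Flt3 and Kit, and of the 10 markers 9 had a negative log2 fold change (median -0.42). For 2 of them, Ly6a and Procr, the 3 mutant values lay below the 3 WT values, against 7.67% of all genes tested. Ly6a, the gene of the sort marker Sca-1, had 81.5, 65.9 and 75.7 CPM in mutants 1, 2 and 3, against 148, 162 and 156 CPM in WT mice (log2 fold change -1.06 ± 0.18, SE, edgeR adjusted p of 0.312). Procr averaged 24.7 CPM in the mutants and 38.1 CPM in WT mice. The part of these marker differences in the members' values was not tested. The 12 granulocyte-monocyte markers summed to 6782 to 11869 CPM in the mutants and 1493 to 3478 CPM in WT mice. The 12 B cell markers summed to 640.1, 101 and 81.7 CPM in mutants 1, 2 and 3, against 675 to 1163 CPM in WT mice. The 6 T and NK cell markers and the 5 erythroid markers stayed under 11 CPM in sum in each library, and Hba-a1 had 0 counts in all 6. The 6 macrophage markers summed to 6.06 to 40.9 CPM in the mutants and 45.9 to 76.1 CPM in WT mice. The mouse 2 libraries of both genotypes correlated at 0.344 across genes in their deviations from the group means, against 0.11 and 0.0567 for mice 1 and 3. Between a mutant and a WT mouse of unlike number the values ran from -0.287 to 0.279. By Xist and Ddx3y counts mutant mice 1 and 2 were male and the other 4 mice female.

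None of the 10 members passed edgeR's test for a genotype difference, while DESeq2, an alternative, called 1 of them, Pmaip1, higher. By edgeR's quasi-likelihood test with Benjamini-Hochberg adjustment over 12653 genes, 0 genes were called higher (percent called 0) and 0 lower (percent called 0) at an adjusted p under 0.05, and DESeq2 called 101 higher and 68 lower. Without adjustment, p was under 0.05 for 2 of the 10 members in the higher direction and 0 in the lower, against 3.43% and 3.13% of all genes tested. For 3 members, Pmaip1, Bcl2 and Bid, the 3 mutant values lay above the 3 WT values, against 6.89% of all genes tested. For 0 members they lay below, against 7.67% of all genes tested. The median log2 fold change (mutant over WT) was 0.27 over the 10 members, 7 positive and 3 negative, and 0.0022 over all genes tested. Both genotypes are whole sorted fractions, so fewer cells of a type and less RNA per cell cannot be told apart.

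Levels can be compared between genes only per length, and on the deposited FPKM scale the members spanned a wide range in WT mice. Bax led with a mean of 106 ± 39.7 FPKM (SD, n = 3), followed by Mcl1 at 69.3 ± 6.24, Bid at 60.3 ± 3.07, Bad at 27.4 ± 8.57 and Bcl2l1 at 23.97 ± 3.24 FPKM. Bcl2 at 10.3 ± 1.72 and Bbc3 at 8.83 ± 0.318 FPKM formed a middle pair. The lowest levels were those of Bcl2l11 at 4.14 ± 1.55, Bak1 at 1.97 ± 1.23 and Pmaip1 at 0.757 ± 0.509 FPKM. In this order the WT ranges of Mcl1 and Bid, Bad and Bcl2l1, Bcl2 and Bbc3, Bcl2l11 and Bak1, and Bak1 and Pmaip1 overlapped, while the other neighbours did not overlap.

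**Figure D1:**
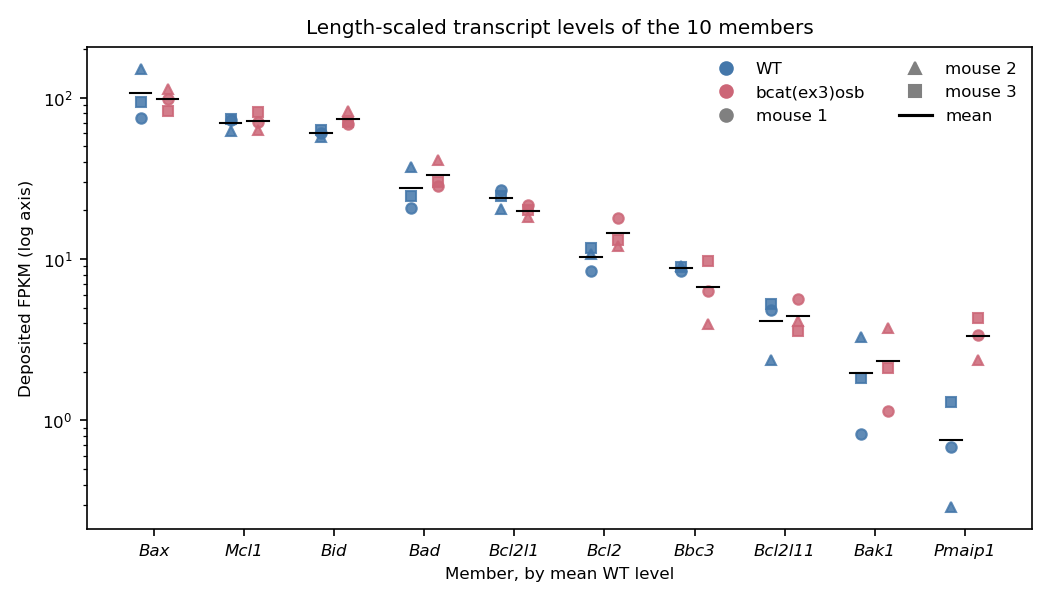
Deposited FPKM (log axis) of the 10 members, 1 point per library, with blue for WT, red for bcat(ex3)osb, shapes for the mouse number and bars for group means. Bax has the highest WT mean, 106 FPKM, and Pmaip1 the lowest, 0.757 FPKM, while in mutant mice Pmaip1 averages 3.35 FPKM.

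In mutant mice the same genes filled the upper and lower ends of the order. Bax averaged 98.3 ± 15.5, Bid 74.1 ± 7.49 and Mcl1 71.5 ± 9.16 FPKM (SD, n = 3 each), so that Bid stood before Mcl1, though their ranges overlapped. Pmaip1 at 3.35 ± 0.966 FPKM stood before Bak1 at 2.33 ± 1.32 FPKM, again with overlapping ranges. Bcl2 at 14.4 ± 3.16 FPKM no longer overlapped Bbc3 at 6.67 ± 2.86 FPKM. Among the 3 survival transcripts Mcl1 made up 64.0%, 67.6% and 70.9% of their summed FPKM in mutants 1, 2 and 3, against 67.2%, 66.5% and 66.9% in WT mice. Mcl1 was thus the largest part of the survival transcripts in every library.

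Pmaip1 (chromosome 18, 66458604 to 66465558 in GRCm38.p6) encodes NOXA, a BH3-only protein that binds MCL1 and promotes its loss. It had 168, 108 and 201 counts in mutants 1, 2 and 3, against 35, 12 and 69 counts in WT mice 1, 2 and 3. These are levels of 9.04, 6.97 and 11.1 CPM in the mutants and 1.70, 0.780 and 3.36 CPM in WT mice. The groups did not overlap, and the lowest mutant value was 2.08 times the highest WT value. The log2 fold change was 2.21 ± 0.56 (SE), or 4.61-fold, with an edgeR adjusted p of 0.483. Leaving out WT mouse 3, the WT mouse with the most Pmaip1, gave a log2 fold change of 2.85, and leaving out WT mouse 2 one of 1.84. It ranked 114 of the 12653 genes by unadjusted p. DESeq2, tried as an alternative, called it higher with an adjusted p of 0.0113, and over all 17 alternatives the adjusted p ran from 0.0113 to 1.00. On log2(FPKM + 1) the change was 1.33, a scale that understates changes of low genes. Mutant mice also held more granulocyte-monocyte marker transcripts, with sums of 8932.5, 11869 and 6782.5 CPM in mutants 1, 2 and 3. In WT mice 1, 2 and 3 the sums were 1493, 3314 and 3478 CPM. The part of those cells in the Pmaip1 difference was not tested.

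Bcl2 (chromosome 1, 106538176 to 106714290) encodes the founding survival protein of the family. Its CPM values were 140.2, 104 and 99.0 in mutants 1, 2 and 3, against 61.7, 83.9 and 88.4 in WT mice. Mutant mouse 1 was the highest, and the closest mutant and WT values differed 1.12-fold. The log2 fold change was 0.55 ± 0.23 (SE), or 1.47-fold, with an edgeR adjusted p of 0.733. Without mutant mouse 1 it was 0.38, and without both libraries of mouse number 2, an alternative chosen after the data were seen, it was 0.66. With sex as a covariate, where the genotype difference rests on mutant mouse 3, the log2 fold change was 0.34, the lowest over the 17 alternatives. Mutant mouse 1 was also the mutant mouse with the most B cell marker transcripts, 640.1 CPM in sum. Mutant mice 2 and 3 had sums of 101 and 81.7 CPM. The WT mice, with less Bcl2, had sums of 675, 1040 and 1163 CPM. The part of B cells in the Bcl2 difference was not tested. In GENCODE M21 558 bases of Bcl2 exons overlap the antisense gene D630008O14Rik, and whether the counting used strand is not stated in the labels.

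The promoter of Bcl2 is shown as that of a member whose groups did not overlap, with that of Bcl2l11, a member whose groups overlapped, for comparison. Each is the 250 bases before the start in the RefSeq table (GRCm38.p6), at chr1:106714291-106714540 on the minus strand and chr2:128125788-128126037 on the plus strand, 5′ to 3′. Capitals mark GC boxes, searched as GGGCGG and its reverse complement CCGCCC.
Bcl2: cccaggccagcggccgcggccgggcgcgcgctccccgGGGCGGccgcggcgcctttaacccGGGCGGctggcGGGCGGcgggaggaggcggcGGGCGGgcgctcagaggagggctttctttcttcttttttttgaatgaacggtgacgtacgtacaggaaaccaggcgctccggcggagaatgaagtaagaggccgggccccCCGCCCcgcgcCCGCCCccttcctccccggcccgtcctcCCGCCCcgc
Bcl2l11: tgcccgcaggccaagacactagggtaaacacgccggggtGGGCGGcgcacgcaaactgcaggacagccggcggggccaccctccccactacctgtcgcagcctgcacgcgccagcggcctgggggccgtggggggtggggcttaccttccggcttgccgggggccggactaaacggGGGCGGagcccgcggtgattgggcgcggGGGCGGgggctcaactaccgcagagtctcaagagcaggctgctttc
The Bcl2 window held 7 GC boxes and the printed Bcl2l11 window 3. Bid, whose groups did not overlap, had 3 in its window. For Pmaip1, the remaining member whose groups did not overlap, no window was available. Of members whose groups overlapped, Bbc3 had 5, 1 and 7 in its windows, Bad 3 and 0, Bax 2 and Mcl1 1. Bak1 and each Bcl2l1 window had 0. The RefSeq table holds a second Bcl2l11 start, with 2 GC boxes in its window, and the one printed is the upstream start, where the gene's annotation begins. A GC box was present in 32.7% and an E-box, CACGTG (searched on both strands, and its own reverse complement), in 6.02% of the 32851 windows of the same length. Neither of the printed windows held an E-box. These matches describe the letters of the windows and say nothing of which factor was bound.

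For Mcl1 and Bcl2l1, the other survival genes, the genotypes overlapped. Mcl1 (chromosome 3, 95656944 to 95663179), whose short-lived protein is needed by blood stem cells, had 246, 244 and 276 CPM in mutants 1, 2 and 3, against 239, 217 and 249 CPM in WT mice. Mutant mice 1 and 2 lay inside the WT range, and the log2 fold change was 0.12 ± 0.17 (SE) with an edgeR adjusted p of 0.926. Bcl2l1 (chromosome 2, 152758732 to 152833803), which encodes BCL-XL, had 51.3, 47.7 and 46.6 CPM in the mutants and 60.3, 48.7 and 56.6 CPM in WT mice. Its groups overlapped only through mutant mouse 1 and WT mouse 2, and the log2 fold change was -0.19 ± 0.18 with an edgeR adjusted p of 0.905. Without both libraries of mouse number 2, the remaining mutant values of Bcl2l1 lay below the WT values. That omission was chosen after the data were seen and left 2 mice a group. The share of all genes so separated was not computed.

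**Figure D2:**
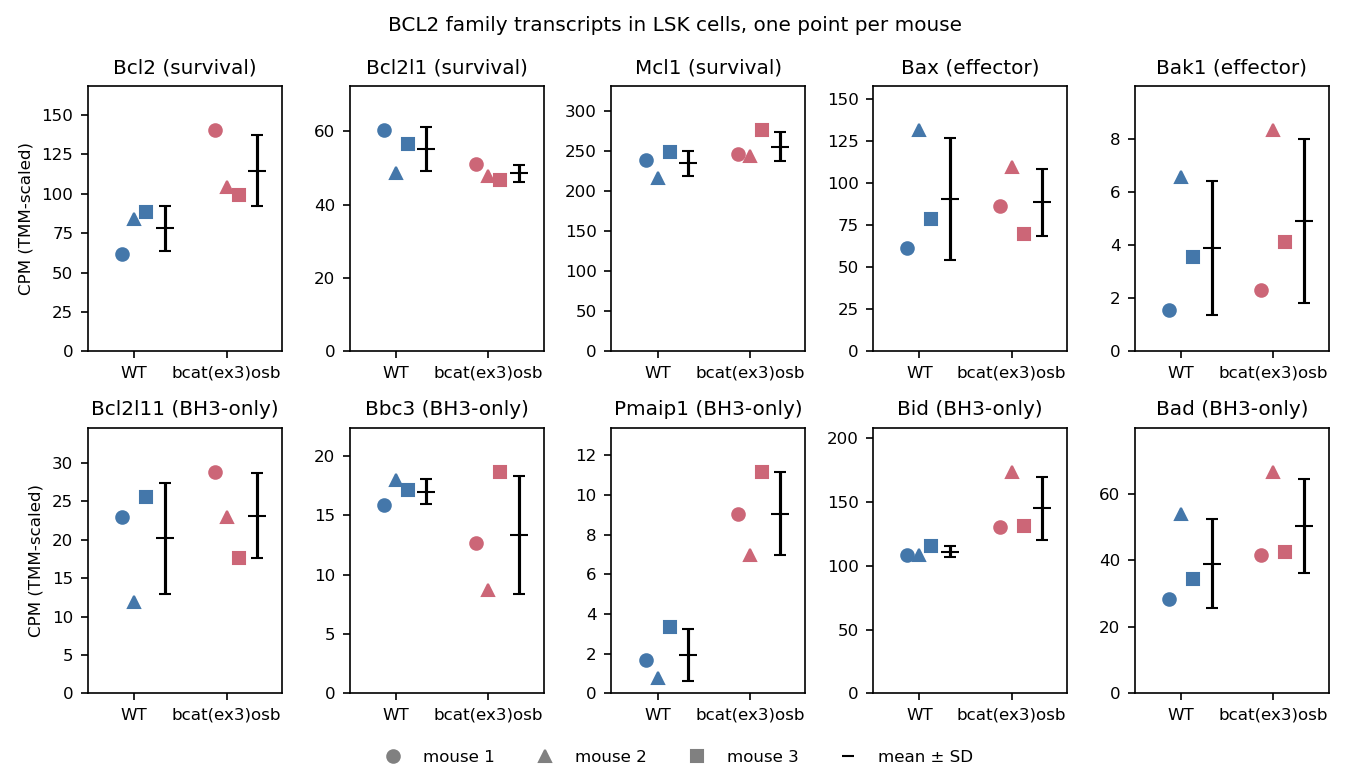
CPM of each member by genotype, with 1 point per mouse, shapes for the mouse number, and mean ± SD (n = 3) beside each group; every axis starts at 0. Pmaip1, Bcl2 and Bid are the 3 panels in which the groups do not overlap, and mouse 2 of both groups is the highest point for Bax, Bak1 and Bad.

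The effectors Bax and Bak1 varied more within genotypes than between them. Bax (chromosome 7, 45461695 to 45466903), whose protein inserts into the outer mitochondrial membrane, had 86.2, 109.5 and 70.02 CPM in mutants 1, 2 and 3, against 61.4, 131 and 78.9 CPM in WT mice. The mouse numbered 2 was highest in each group. Its log2 fold change was -0.03 ± 0.31 (SE), with an edgeR adjusted p of 0.990, and the sign turned without WT mouse 2 (0.34). Bak1 (chromosome 17, 27019812 to 27028627), the other effector, had 2.31, 8.32 and 4.10 CPM in the mutants and 1.55, 6.57 and 3.55 CPM in WT mice, with mouse 2 again highest in each group. Its log2 fold change was 0.34 ± 0.66 with an edgeR adjusted p of 0.947, and it was 0.94 without WT mouse 2 and -0.27 without mutant mouse 2. On the FPKM scale Bax exceeded Bak1 by 85.8-, 30.3- and 39.3-fold in mutants 1, 2 and 3, against 91.0-, 46.1- and 51.1-fold in WT mice. In GENCODE M21, 614 bases of Bak1 exons overlap Ggnbp1 on the other strand, and 192 bases of Bax exons overlap the protein-coding gene Gm45808 on the same strand.

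Bid (chromosome 6, 120893119 to 120917062) encodes the BH3-only protein that links death receptors to mitochondria after cleavage by caspase-8. It had 131, 173 and 131 CPM in mutants 1, 2 and 3, against 109, 108 and 116 CPM in WT mice. Mutant mouse 2 was the highest, and the closest mutant and WT values differed 1.13-fold. The log2 fold change was 0.39 ± 0.19 (SE), or 1.31-fold, with an edgeR adjusted p of 0.789. Without mutant mouse 2 it was 0.24 and without both libraries of mouse number 2 it was 0.21. Exons of Bid share 628 bases with those of Bcl2l13 on the other strand in GENCODE M21, and the split of reads between the pair depends on a strand setting that is not given here. Bcl2l13 itself had a log2 fold change of 0.09 ± 0.23.

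Bad (chromosome 19, 6941861 to 6951905), a BH3-only protein held inactive by survival kinases, had 41.6, 66.4 and 42.6 CPM in the mutants and 28.4, 54.0 and 34.5 CPM in WT mice. Mouse 2 was highest in each group. Its log2 fold change was 0.37 ± 0.31 (SE) with an edgeR adjusted p of 0.892. Without both libraries of mouse number 2, the remaining mutant values lay above the WT values. That omission, chosen after the data were seen, left 2 mice a group, and the share of all genes so separated was not computed. Leaving out mutant mouse 2 gave a log2 fold change of 0.11, and leaving out WT mouse 2 one of 0.67. Exons of Bad and Gpr137, which lie on opposite strands, share 524 bases in GENCODE M21.

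Bbc3 (chromosome 7, 16308398 to 16318334) encodes PUMA, which binds all the main survival proteins. It had 12.7, 8.71 and 18.6 CPM in the mutants and 15.9, 18.0 and 17.1 CPM in WT mice. The WT mice lay close together, with an SD of 1.08 CPM against 4.99 CPM among mutant mice, and mutant mouse 3 lay above and mutant mice 1 and 2 below all of them. The log2 fold change was -0.35 ± 0.32 (SE) with an edgeR adjusted p of 0.897. Mutant mice 1 and 2 were the male mice by Xist and Ddx3y counts, and with sex as a covariate, where the genotype difference rests on mutant mouse 3, the log2 fold change was 0.13. Bcl2l11 (chromosome 2, 128126038 to 128162547) encodes BIM, the BH3-only protein induced when growth factors are withdrawn. It had 28.8, 23.0 and 17.7 CPM in the mutants and 22.9, 11.96 and 25.6 CPM in WT mice, with groups that overlapped and a log2 fold change of 0.20 ± 0.34 (adjusted p of 0.938 by edgeR). Its sign turned with sex as a covariate (-0.19) and without WT mouse 2 (-0.07), the lowest of the 6 libraries.

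**Figure D3:**
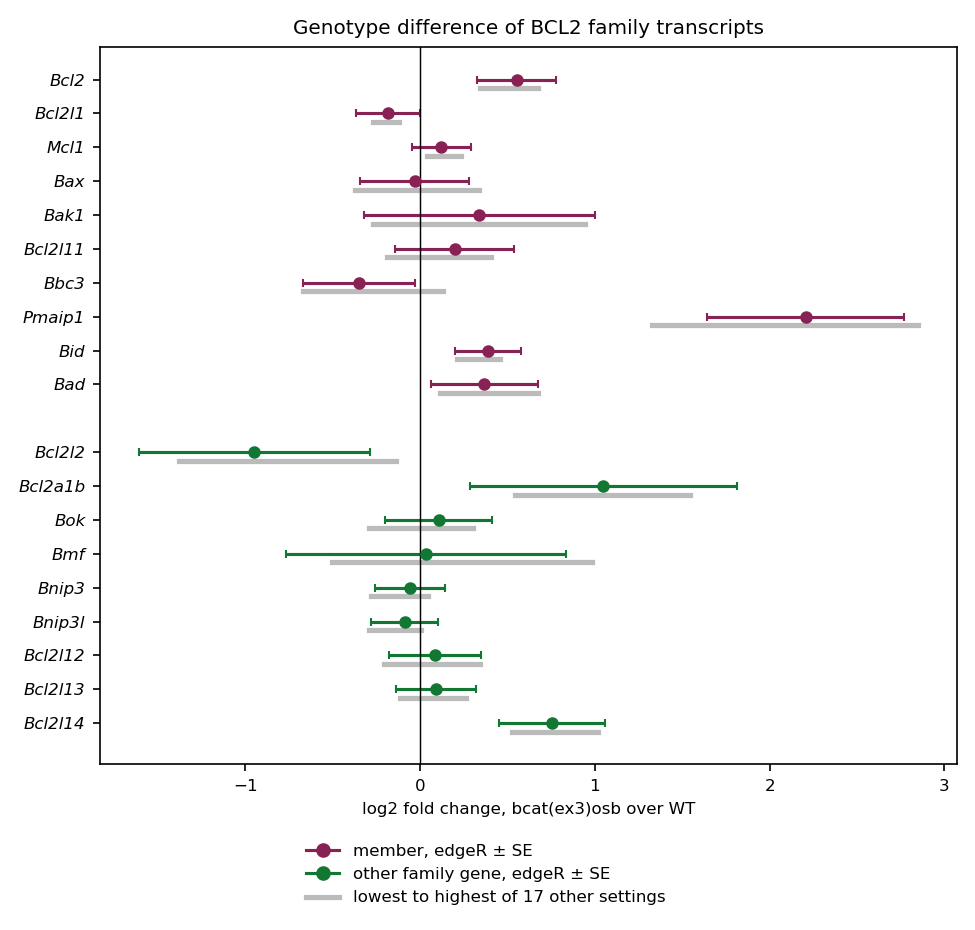
Log2 fold change (bcat(ex3)osb over WT) of the 10 members and the 9 other BCL2 family genes tested, as edgeR estimate ± SE (points and bars), with grey lines from the lowest to the highest value over 17 other settings. The grey lines of 6 of the 10 members stay on 1 side of 0, with Pmaip1 from 1.33 to 2.85, while those of Bax, Bak1, Bcl2l11 and Bbc3 cross it.

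Ratios of a death to a survival transcript are often used to summarise the balance of the family, and here they were taken on deposited FPKM within each library, as a description without a test. The ratio of Bax to Bcl2 was 5.48, 9.38 and 6.30 in mutants 1, 2 and 3, against 8.86, 14.0 and 7.94 in WT mice. In each genotype mouse 2 had the highest ratio, and the groups overlapped through mutant mouse 2. The ratio of Bcl2l11 to Mcl1 was 0.0810, 0.0652 and 0.0443 in mutant and 0.0666, 0.0382 and 0.0713 in WT mice, with overlap. Summed over members, the 5 BH3-only transcripts reached 113, 134 and 119 FPKM in the mutants and 95.3, 105.8 and 103 FPKM in WT mice, mostly Bid and Bad. The 3 survival transcripts reached 109.8, 93.3 and 114.5 FPKM in the mutants and 107.5, 93.4 and 109.8 FPKM in WT mice. Pmaip1 made up 3.01%, 1.76% and 3.63% of the BH3-only sum in mutant and 0.714%, 0.274% and 1.26% in WT mice, so the member that differed most was a small part of the total.

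The libraries of mouse number 2 deviated alike in both genotypes for several members. Against the mean of mice 1 and 3 on the log2 CPM scale, Bak1 was 2.70-fold in mutant mouse 2 and 2.80-fold in WT mouse 2, Bad 1.58- and 1.72-fold, and Bax 1.41- and 1.89-fold. Pmaip1 was 0.694- and 0.327-fold. Of the 10 members, 3 lay above in both libraries, 3 below in both, and 4, Bcl2, Bcl2l11, Bbc3 and Bid, moved in opposite directions. Among all 55 tested members and other pathway genes, 25 lay above in both, 12 below in both and 18 apart. The share of all genes tested that moved alike was not computed. The 25 had a median gene length of 1756 bases and the 12 of 2976 bases. Apaf1, the scaffold of the apoptosome, was 0.243-fold in mutant mouse 2 and 0.449-fold in WT mouse 2, and the initiator caspase Casp9 was 0.455- and 0.408-fold. For Apaf1 and Casp9 these deviations were larger than the genotype difference. The labels give no batch, and the part of gene length or library quality in these shifts was not tested.

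**Figure D4:**
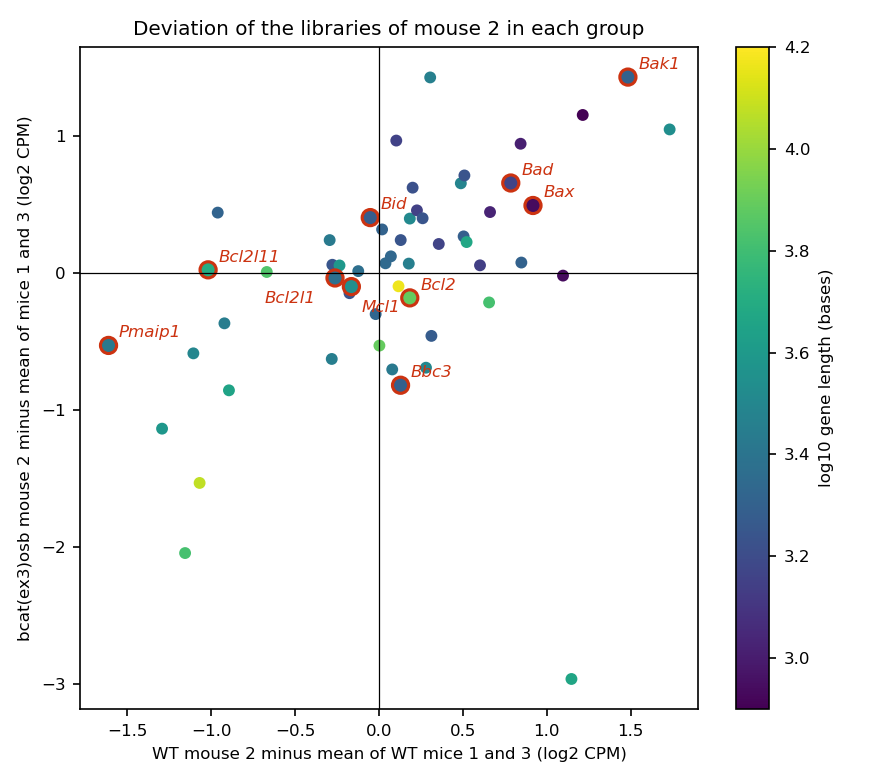
Log2 CPM of mouse 2 minus the mean of mice 1 and 3, for WT (x axis) and bcat(ex3)osb (y axis), over 55 tested BCL2 family and death pathway genes, coloured by log10 gene length, with members ringed and named. Bak1, Bad and Bax lie in the upper right, above in both libraries, and Pmaip1 in the lower left.

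Of 15 other BCL2 family genes, 9 passed the filter, 6 with a positive and 3 with a negative log2 fold change (median 0.09), and 0 were called. Bcl2l14, a less studied family gene, had 8.99, 11.7 and 13.9 CPM in mutants 1, 2 and 3, against 6.64, 6.96 and 6.91 CPM in WT mice, without overlap. It was the 1 gene of the 9 whose mutant values all lay above WT, against 6.89% of all genes tested. Its log2 fold change was 0.75 ± 0.31 (SE) with an edgeR adjusted p of 0.725. Bcl2a1b, a survival gene of myeloid and activated lymphoid cells, had 0.59, 2.71 and 2.495 CPM in the mutants and 0.78, 1.496 and 0.54 CPM in WT mice. It and its near-identical copies Bcl2a1a and Bcl2a1d, which did not pass the filter, are uncertain because shared reads may be split between them. Bcl2l2 (BCL-W) had a log2 fold change of -0.95 ± 0.66, with WT mouse 2 at 7.48 CPM and the other 5 libraries between 1.40 and 3.16 CPM, and it was -0.14 without that mouse. Bok, a BAX-like effector, had 44.5 CPM in mutant mouse 2 and 21.4 to 29.2 CPM in the other libraries. Bnip3 and Bnip3l, mitophagy receptors of the outer membrane, had log2 fold changes of -0.06 ± 0.20 and -0.09 ± 0.19, Bcl2l12 one of 0.09 ± 0.27 and Bmf one of 0.04 ± 0.80. Hrk and Bcl2l10 had 0 counts in all libraries, and Bik and Bcl2l15 stayed under 0.4 CPM in each.

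Of 17 other genes listed for the mitochondrial death pathway, all tested, 9 had a positive and 8 a negative log2 fold change (median 0.04), with 0 called. For 2 of the 17 the 3 mutant values lay above the WT values, against 6.89% of all genes tested. Vdac1, an outer membrane channel, had 164, 179 and 180.3 CPM in the mutants and 133, 111 and 137 CPM in WT mice, a log2 fold change of 0.46 ± 0.18 (SE) with an edgeR adjusted p of 0.701. Dffb, the nuclease that cuts DNA during apoptosis, had 37.4, 51.0 and 37.6 CPM in the mutants and 31.6, 14.8 and 26.4 CPM in WT mice, a log2 fold change of 0.79 ± 0.31 with an adjusted p of 0.710 by edgeR. Endog, a mitochondrial nuclease, had one of 0.68 ± 0.43, and Cycs, cytochrome c, one of 0.35 ± 0.27. The values were 0.13 ± 0.54 for Apaf1 and 0.10 ± 0.43 for Casp9.

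Of 8 death receptor genes 7 were tested, 5 positive and 2 negative (median 0.06), with 0 called. Tnfrsf1a, the main TNF receptor, had 105, 117 and 110.1 CPM in the mutants and 93.7, 97.1 and 91.2 CPM in WT mice, without overlap, and a log2 fold change of 0.24 ± 0.17 (SE, edgeR adjusted p of 0.868). It was the 1 gene of the 7 whose mutant values all lay above WT, against 6.89% of all genes tested. Tradd and Fadd, receptor adaptors, had -0.10 ± 0.22 and 0.10 ± 0.25, Casp8, which cleaves BID, 0.0030 ± 0.28, and its inhibitor Cflar -0.07 ± 0.21. Fas had 0, 0 and 20 counts in mutants 1, 2 and 3, against 20, 7 and 2 counts in WT mice, and did not pass the filter. Of 12 regulators of the members 8 were positive and 4 negative (median 0.17), with 0 called and 0 without overlap. Over all genes tested, the mutant values lay above WT in 6.89% and below in 7.67%. Pim2 and Akt1, kinases that phosphorylate BAD, had log2 fold changes of 0.41 ± 0.21 and 0.26 ± 0.19, and Pim1 one of 0.15 ± 0.25. Atf4, a stress-induced transcription factor that can raise Pmaip1, had 0.46 ± 0.27. Foxo3, an activator of Bcl2l11 and Bbc3, had 0.62 ± 0.49, with mutant mouse 2 at 15.4 CPM and the other libraries between 4.21 and 7.70 CPM, and it was 0.0087 without that mouse.

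Genes with a like pattern over the 6 libraries were found by the root mean square difference of log2 CPM, each gene centred on its own mean. For Pmaip1, which spanned 3.74 log2 units, the closest were Amica1 (0.31 log2 units), Rnd3 (0.41) and Lifr (0.45). Amica1 averaged 12.2 CPM in the mutants and 2.99 CPM in WT mice. For Bcl2, which spanned 1.18 log2 units, they were Nucb2 (0.10), Spns3 (0.11) and Pag1 (0.11), and for Mcl1, which spanned 0.35, Cul5 (0.029), Wdr33 (0.037) and Zfyve19 (0.040). These are descriptions over the 6 libraries, with no test.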

How the data were processed

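The submitters' processing notes name the build mm10 and the tools featureCounts 1.5.0-p3, STAR 2.5.2b and bcl2fastq 2.17. Annotation, strand setting and multi-mapping treatment are not stated there. For each library the authors deposited raw counts by gene, with gene length and FPKM beside them. Each deposited FPKM equalled the value from count, length and library total within 0.005. Gene lengths in bases are another deposited column.

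Counts were filtered with filterByExpr (minimum count 10, minimum total 15), which kept 12653 of 23420 genes, scaled by TMM and tested with edgeR 4.0.16 (R 4.3.3) by the quasi-likelihood F test with genotype as the only term, Benjamini-Hochberg adjustment and a threshold of 0.05. SE came from the F statistic. The procedure was tested on simulated data. Alternatives used DESeq2 1.42.0 and limma 3.58.1, other scalings and filters, log2 of FPKM plus 1 or 0.1, sex, gene length, the mouse number and left-out mice. The titles do not say that the mouse numbers pair animals, so the main fit held no block for them. Same-numbered mice correlated at 0.11, 0.344 and 0.0567 in their deviations from group means. With 3 mice a group, the smallest exact permutation p is 0.1.

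Members and lists were chosen with earlier results of these data known. Named were all members and other family genes, up to 3 genes per pathway list by smallest unadjusted p, and Cycs, Apaf1, Casp9, Casp8, Cflar, Foxo3 and Pim1. One gene of the pathway lists is not reported here. Like patterns were sought for Bcl2, Mcl1 and the member with the smallest p. Coordinates and promoters are from RefSeq tables on GRCm38.p6 (mm10 is the same assembly), with coordinates for all 10 members. Promoter windows were matched for the members by symbol, which gave none for Pmaip1.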

Additional observations from a re-analysis of the deposited data

How the results depend on the processing

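Over 17 alternatives, 6 of the 10 members kept their sign throughout: Bcl2, Bcl2l1, Mcl1, Pmaip1, Bid and Bad. Of the 35 named genes, members included, 17 did so. All alternatives drew on the same 6 libraries. Of the log2 fold changes recomputed for named genes, 534 kept sign and side of the threshold, 60 turned in sign, and Pmaip1 passed by DESeq2 (2.23). DESeq2 called 101 genes higher and 68 lower, with 1 member higher and 0 lower. With the mouse number as a replicate block 5 genes were called higher and 0 lower, with the length trend removed 1 and 0, and leaving out 1 mouse gave 0 to 4 higher and 0 to 13 lower, no member among them. The 4 higher came without mutant mouse 3 (2 lower) and the 13 lower without mutant mouse 1 (1 higher). The cause was not tested.

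Signs turned at these log2 fold changes. By limma-voom they were Bax 0.026, Bmf -0.20 and Apaf1 -0.021, and with the replicate block Bax 0.017, Bmf -0.14 and Apaf1 -0.013. With no filter Casp8 was -0.00085. On log2(FPKM + 1) Bok was -0.044, Bmf -0.016, Apaf1 -0.048 and Casp8 -0.031, and on log2(FPKM + 0.1) Bok -0.048, Bmf -0.20, Apaf1 -0.095 and Casp8 -0.031. With sex as a covariate Bcl2l11 was -0.19, Bbc3 0.13, Bok -0.21, Bcl2l12 -0.20, Fadd -0.063, Cycs -0.036, Casp8 -0.040, Cflar 0.15 and Foxo3 -0.49. With the length trend removed Bok was -0.052, Bmf -0.062, Bcl2l12 -0.047 and Cflar 0.044. Without both libraries of mouse number 2, chosen after seeing the data, Bax was 0.15, Bcl2l11 -0.072, Bok -0.27, Bcl2l13 -0.11, Tradd 0.094, Casp8 -0.14 and Cflar 0.076.

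Leaving out each mouse gave ranges of -0.25 to 0.34 for Bax, -0.27 to 0.94 for Bak1, -0.070 to 0.40 for Bcl2l11, -0.29 to 0.30 for Bok, -0.50 to 0.53 for Bmf, -0.14 to 0.042 for Bnip3, -0.23 to 0.0029 for Bnip3l, -0.076 to 0.34 for Bcl2l12, -0.10 to 0.26 for Bcl2l13, -0.26 to 0.12 for Tradd, -0.17 to 0.55 for Apaf1, -0.21 to 0.39 for Casp9, -0.24 to 0.18 for Casp8 and -0.19 to 0.086 for Cflar. Of the members, Bak1 and Pmaip1 had the fewest counts.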
